A study of Mus musculus with 25 samples.

Results

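Chemokines and their receptors are described here in E0771 tumours of mice given an antibody against CD73, set against tumours of control mice. The genes were chosen by symbol alone: every gene named Ccl, Cxcl, Cx3cl or Xcl with a number, every gene named Ccr, Cxcr or Ackr with a number, and Cx3cr1, Xcr1 and Ccrl2. This gave 62 of the 25006 entries of the gene table, with 60 different symbols, of which 39 entries are ligands and 23 are receptors. RNA was sequenced from 3 anti-CD73 and 3 con libraries of C57BL/6 mice that carried E0771, a mammary carcinoma line of that strain. The anti-CD73 mice received the antibody every 3 days, and the labels give the others only as con. CD73, encoded by Nt5e, is the surface enzyme that makes adenosine outside cells, and the comparison asks which transcripts differed in the tumours when it was targeted. The labels call the material enriched CD8+ T cells from tumour tissue, and give neither the age of the mice nor how many animals stand behind a library. The other 19 of the 25 samples were not analysed here.

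Chemokines are small secreted proteins that guide leukocytes along gradients by binding receptors coupled to G proteins on the cell surface. Those that attract neutrophils act through Cxcr2, those that attract monocytes through Ccr2, those made under interferon gamma act on T cells and natural killer cells through Cxcr3, and a further set acts on macrophages and lymphocytes through Ccr1 and related receptors. Atypical receptors bind chemokines without the usual G protein signal and remove or present them. In tumours, both the carcinoma cells and the infiltrating myeloid cells are known to make chemokines.

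Levels are normalized counts, the unit of the deposited table, in which each library's gene counts are scaled by its DESeq size factor. Values are listed in the order of replicates 1, 2 and 3 of each group. Recovered reads ranged from 10180624 to 17161679 per library. T cell transcripts were scarce against the label: the 13 measured T cell identity genes summed to between 462 and 838 normalized counts in anti-CD73 libraries and to between 258 and 915 in con libraries, and none of them was without reads in all libraries. Cd8a stood at 90.2, 82.6 and 35.0 in anti-CD73 libraries and at 122, 7.60 and 24.7 in con libraries. Con replicate 1 stood apart from the other con libraries: across the tested genes its log2 difference from their mean had an SD of 0.754, while the difference between those 2 had an SD of 0.346. Erythroid transcripts parted it most among the marker lists: they summed to between 8412 and 30978 normalized counts in anti-CD73 libraries, and to 7845, 55529 and 58716 in con libraries, with 5 of 5 tested log2 fold changes below 0 and a median of -0.73. Endothelial markers had 4 of 4 above 0, with a median of 0.85, and summed to between 563.5 and 872 in anti-CD73 libraries and to between 213 and 776 in con libraries. The part of either list in the results below was not tested. Because con replicate 1 stood apart, log2 fold changes of the chemokine and receptor genes without it are given beside the full ones, a choice made after these data had been seen. The labels do not tie replicates to separate animals, so the p-values speak of the spread between these libraries, part of which may be technical. In bulk RNA, fewer cells of a type and less RNA per cell cannot be told apart.

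Of the 62 entries, 35 had a mean of at least 10 normalized counts over the 6 libraries and were tested, 21 ligands and 14 receptors. A further 20 had reads but a lower mean, and 7 (Ccl19, Ccl21a, Ccl26, Cxcl17 and 3 entries of Ccl21c) had no read in any library. Only Ccr3 among the tested genes had a group mean under 10. The test was limma on log2(normalized count + 1), two-sided, adjusted by Benjamini and Hochberg over 12262 genes, and log2 fold changes below are anti-CD73 over con on that scale. The RefSeq gene models of 12 of the 35 overlap another gene, so their counts are uncertain, as the sources used here do not say how reads were counted or whether strand was used. They are Ccl3, Ccl4, Ccl5, Ccl6, Ccl25, Cx3cl1, Cxcl10, Cxcl11, Cxcl16, Ccr9, Cxcr5 and Cxcr6. The shared stretch was 4741 bases for Ccl5, 5202 for Ccl6 and 5278 for Cxcr6, and ranged from 120 for Cxcr5 to 13636 for Ccl25.

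Most chemokine and receptor genes lay higher in anti-CD73 than in con libraries, but none passed the limma test over all genes with 6 libraries and no block. By limma, 0 of the 35 had an adjusted p under 0.05, as did 0.0% of all genes tested. At an unadjusted p under 0.05, 7 lay higher (Cxcl5, Ccl6, Ccl9, Ccl12, Cxcr1, Cxcr2 and Cxcr5), against a background of 8.69% of all genes, and 1 lay lower (Ackr3), against 6.82%. The groups did not overlap for 5 that lay higher (Cxcl5, Ccl9, Cxcr1, Cxcr2 and Cxcr5), a background of 11.5%, and for 1 that lay lower (Ackr3), a background of 12%. On the recovered reads, edgeR called 0 genes of the whole table and had 1868 at an unadjusted p under 0.05, against 1902 with limma. DESeq2 called 1 of the 31 members it could adjust higher, Cxcr2, against 2.99% of all genes, and 1 lower, Ackr3, against 2.06%. Among the genes that lay higher, the share at an unadjusted p was above its background and the other shares were near theirs. Among those that lay lower, the shares by limma and by overlap were below their backgrounds. With 6 libraries and no block, 0 ligands were called by limma, edgeR or DESeq2. A limma fit that blocks by the number in the descriptions called 11 ligands higher and 2 lower, and 9 receptors higher and 1 lower, against 8.94% of all genes higher and 5.58% lower. Only 2 of those numbers are shared between the groups, so con replicate 1 and anti-CD73 replicate 2 carry no weight in it.

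In all, 26 of the 35 genes had a log2 fold change above 0. The median over the 35 was 0.73, with 0.63 for the ligands and 0.89 for the receptors, beside 0.0039 for all genes tested. Taken per library as deviations from each gene's mean, the set medians had an SD between replicates, pooled over groups, near that size. It was 0.62 for the 35, 0.56 for the ligands and 0.68 for the receptors. Without con replicate 1, limma called 21 of the 35 higher, against 11.9% of all genes, and 2 lower (Ackr3 and Ccl5), against 10.3%. On the reads without that library edgeR called 21 higher, against 12.3% of all genes, and 2 lower, against 9.7%, and DESeq2 called 22 higher, against 12.3%, and 2 lower, against 9.54%. The limma median was then 1.19, beside -0.015 for all genes. It was 0.44 without con replicate 2 and 0.39 without con replicate 3, with 0 calls in both, and 0.49 by edgeR and 0.47 by DESeq2 on the reads of all 6 libraries. The median of the ligands was 1.15 without con replicate 1, 0.34 without con replicate 2 and 0.33 without con replicate 3, and 0.31 by edgeR and 0.29 by DESeq2. That of the receptors was 1.43, 0.59 and 0.55 without those libraries, and 0.62 by edgeR and 0.59 by DESeq2. Con replicate 1 exceeded both other con libraries for 33 of the 35, a pattern held by 45.1% of all genes, and it was the highest of the 6 libraries for 17, a pattern held by 30.7%. All 3 anti-CD73 libraries lay above con replicates 2 and 3 for 24 of the 35, against 25.7% of all genes, and below both for 2, against 27.8%.

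**Figure D1:**
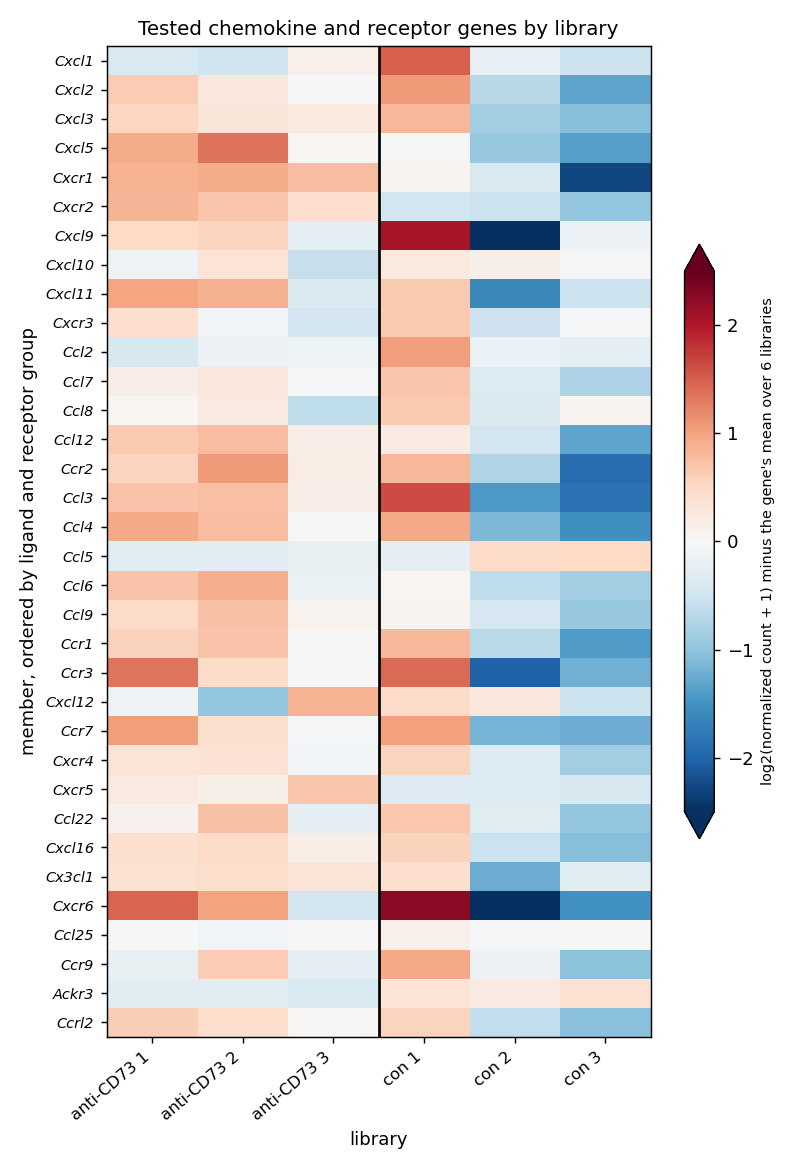
Heat map of 34 of the 35 tested genes in each library, as log2(normalized count + 1) minus the gene's mean over the 6 libraries; red is above and blue below that mean, and the colour scale is cut at its ends. Rows are ordered by ligand and receptor group, and a line parts the anti-CD73 columns on the left from the con columns. Con replicate 1 is red in most rows and is the highest library for 17 of the 35 genes.

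The 4 tested CXC ligands that attract neutrophils sit within one stretch of chromosome 5 (GRCm38.p6, 90759298 to 90905938). Cxcl1, also known as KC, stood at 13462, 12464 and 19084 normalized counts in anti-CD73 libraries, against 49357, 15349.7 and 12168 in con libraries. Con replicate 1 was far above the other 5 libraries, which overlapped between groups, and the log2 fold change was -0.51 (SE 0.49), or 0.11 without that library. Cxcl2, also known as MIP-2, stood at 7701, 6053 and 5005 in anti-CD73 libraries, against 10344, 3053 and 1982 in con libraries. Again con replicate 1 was the highest, but here the other con libraries lay below every anti-CD73 library, with a log2 fold change of 0.63 (SE 0.55), or 1.32 without con replicate 1. Cxcl3, a close relative of both, stood at 1594, 1350.0 and 1292 in anti-CD73 libraries, against 1946, 601 and 521 in con libraries (0.73, SE 0.46, or 1.33 without con replicate 1), which is the order seen for Cxcl2. Cxcl5, also called LIX, stood at 44.6, 60.4 and 23.7 in anti-CD73 libraries, against 22.3, 11.4 and 8.23 in con libraries. Its groups did not overlap, although the gap between 23.7 and 22.3 was small, and the log2 fold change was 1.56 (SE 0.48, limma adjusted p = 0.204, or 1.94 without con replicate 1).

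The promoters of Cxcl1, Cxcl2 and Cxcl3 are shown because Cxcl2 and Cxcl3 parted from their neighbour Cxcl1 across the libraries. That of Cxcl10 is shown because its level differed little between groups by limma without a block. Each window runs from 250 bases before to 50 bases after the start of the gene, from RefSeq on GRCm38.p6, and 25 of the 35 tested genes had a window. Capitals mark matches to the kappaB motif, the site of NF-kappaB, and in Cxcl10 also to AP-1 (TGANTCA) and to the core of an interferon regulatory factor site (AANNGAAA), all sought on both strands. Matches of 1 motif may overlap each other, as they do by all but 1 base in each of the 4 windows, and matches to different motifs do not overlap in them.
Cxcl1, chr5:90890995-90891294, plus strand: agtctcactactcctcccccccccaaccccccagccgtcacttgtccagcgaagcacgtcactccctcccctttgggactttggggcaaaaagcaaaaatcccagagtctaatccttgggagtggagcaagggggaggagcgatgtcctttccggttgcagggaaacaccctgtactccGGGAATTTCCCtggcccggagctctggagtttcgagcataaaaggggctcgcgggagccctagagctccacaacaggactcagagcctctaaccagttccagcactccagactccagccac
Cxcl2, chr5:90903649-90903948, plus strand: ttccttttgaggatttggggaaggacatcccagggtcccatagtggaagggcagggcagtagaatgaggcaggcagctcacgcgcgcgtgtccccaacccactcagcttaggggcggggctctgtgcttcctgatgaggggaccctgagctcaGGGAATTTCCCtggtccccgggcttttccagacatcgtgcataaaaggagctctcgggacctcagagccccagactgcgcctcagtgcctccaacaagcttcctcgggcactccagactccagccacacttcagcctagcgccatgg
Cxcl3, chr5:90785851-90786150, plus strand: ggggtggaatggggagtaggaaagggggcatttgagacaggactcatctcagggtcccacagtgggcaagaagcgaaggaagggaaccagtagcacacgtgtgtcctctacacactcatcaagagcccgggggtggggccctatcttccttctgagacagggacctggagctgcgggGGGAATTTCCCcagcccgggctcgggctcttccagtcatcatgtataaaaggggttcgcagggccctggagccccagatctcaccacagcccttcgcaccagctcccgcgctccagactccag
Cxcl10, chr5:92348840-92349139, minus strand: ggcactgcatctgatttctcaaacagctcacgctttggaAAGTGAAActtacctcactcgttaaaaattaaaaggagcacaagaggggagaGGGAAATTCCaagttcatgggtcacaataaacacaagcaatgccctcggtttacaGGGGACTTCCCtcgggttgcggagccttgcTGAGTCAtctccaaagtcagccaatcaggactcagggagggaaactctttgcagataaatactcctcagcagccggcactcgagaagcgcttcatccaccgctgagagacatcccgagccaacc
The stretch GGGAATTTCCC is the same in Cxcl1, Cxcl2 and Cxcl3, and begins 71, 97 and 73 bases before their starts. It occurs in 14 of all 32851 windows of the RefSeq table, a share of 0.0426%, and in no other tested gene with a window. Cxcl5, Ccl2, Ccl4, Ccl5 and Ccl7 were among the genes without a window, so the stretch could not be sought in them. Cxcl10 has no copy of the stretch, but has 3 kappaB matches, 1 AP-1 match and 1 interferon regulatory factor match.

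Across the 25 tested genes with a window, 8 held a kappaB match (5 of 14 ligands and 3 of 11 receptors), against 8.46% of all windows. A gene was counted if any of its windows held a match, whereas the shares of all windows are per window. Ccrl2 and Ccl25 had additional windows. AP-1 was found in 4 of the 25, against 7.81% of all windows, and the interferon regulatory factor core in 7, against 23.9%. No window held the cyclic AMP response element TGACGTCA (1.79% of all windows) or the STAT site TTCNNNGAA (8.30%), both sought on both strands. The box TATAAA, sought on the given strand, was in 9 of the 25, against 8.32% of all windows. A match is a description of the letters and was not tied to any change in level.

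Cxcr2, the neutrophil receptor for these ligands, lay higher in every anti-CD73 library. Cxcr2 (ENSMUSG00000026180; GRCm38.p6, chromosome 1, 74153994 to 74161246) stood at 900.1, 810.0 and 664 normalized counts in anti-CD73 libraries, against 361, 345 and 257 in con libraries. The lowest anti-CD73 library was well above the highest con library, and con replicate 1 lay close to con replicate 2. The means were 791 ± 119 in anti-CD73 libraries and 321 ± 56.3 in con libraries (SD, n = 3 each), a fold of 2.47, and the log2 fold change was 1.30 (SE 0.18, limma adjusted p = 0.141), or 1.40 without con replicate 1. DESeq2 called it higher. Its relative Cxcr1, which lies close by on the same chromosome (74191785 to 74194708), stood at 34.4, 36.0 and 31.9 in anti-CD73 libraries, against 19.3, 13.9 and 2.99 in con libraries. These groups did not overlap either, with a log2 fold change of 1.72 (SE 0.59, limma adjusted p = 0.240, or 2.18 without con replicate 1). The lowest value came from 4 reads, whose 95% Poisson interval of 1.09 to 10.2 reads covers counting error only.

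Neutrophil markers lay higher alongside these receptors. Of the 8 tested markers 6 had a log2 fold change above 0, with a median of 0.75, or 0.36 without con replicate 1, in which 6 of the 8 lay below the mean of the other con libraries. The 11 measured summed to between 8269.5 and 15071 normalized counts in anti-CD73 libraries and to between 5677 and 7911 in con libraries; none was without reads in all libraries. Cxcr2 minus the mean of the tested neutrophil markers, both on the log2 scale, was 0.39, -0.16 and 0.52 in anti-CD73 libraries and 0.22, -0.55 and -0.79 in con libraries. On that measure the groups overlapped, since con replicate 1 lay above anti-CD73 replicate 2. The part of the neutrophil markers in the Cxcr2 difference was not tested.

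**Figure D2:**
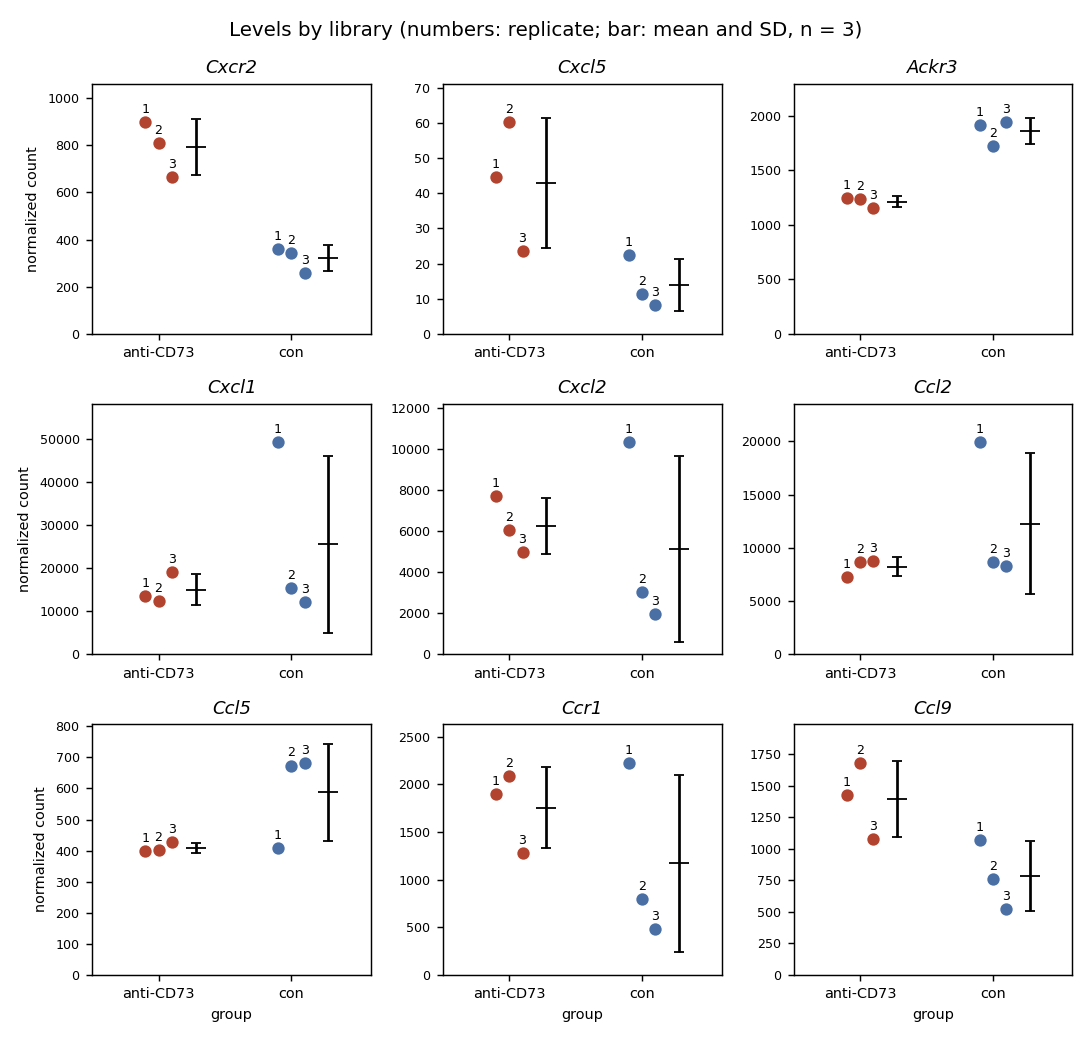
Normalized counts of 9 genes in each library, on linear axes that start at 0, with anti-CD73 (red) left of con (blue); numbers are replicates and bars give the mean and SD of 3 libraries. Cxcr2, Cxcl5, Ccl9 and Ackr3 have groups that do not overlap, whereas con replicate 1 is far above the other con libraries for Cxcl1, Cxcl2, Ccl2 and Ccr1 and below them for Ccl5.

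The ligands of Cxcr3 did not share a direction, and none passed the limma test with 6 libraries and no block. Cxcl9, which interferon gamma induces, stood at 208, 217 and 123 normalized counts in anti-CD73 libraries, against 615, 21.5 and 133 in con libraries. The con libraries held both the highest and the lowest value of the 6, and the log2 fold change of 0.54 was smaller than its SE of 1.04, and the value was 1.70 without con replicate 1. On the recovered reads edgeR and DESeq2 gave -0.46 and -0.48. Cxcl10, induced by both kinds of interferon, stood at 2498, 3428 and 1824 in anti-CD73 libraries, against 3207, 3002 and 2668 in con libraries. Here the con libraries lay close together, con replicate 1 included, and within the anti-CD73 range, with a log2 fold change of -0.24 (SE 0.22, or -0.18 without con replicate 1). The limma block by description number gave -0.41 and called Cxcl10 lower. In that fit con replicate 1 and anti-CD73 replicate 2 carry no weight. Cxcl11, known to carry a frameshift in the C57BL/6 strain, stood at 51.1, 47.6 and 19.5 in anti-CD73 libraries, against 40.6, 7.60 and 17.2 in con libraries (1.00, SE 0.63, or 1.58 without con replicate 1). Their receptor gene Cxcr3, a mark of activated T cells and natural killer cells, stood at 75.3, 54.0 and 40.1 in anti-CD73 libraries, against 89.4, 39.3 and 55.4 in con libraries. Its groups overlapped, and the log2 fold change was -0.083 (SE 0.37), or 0.22 without con replicate 1. The T cell identity markers had 13 of 13 log2 fold changes above 0, with a median of 0.69 and the sums given above, and their part in the Cxcr3 values was not tested. These 3 ligand genes neighbour each other on chromosome 5 (92321331 to 92363296), and the gene model of Art3 overlaps both Cxcl10 and Cxcl11.

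The monocyte attractants on chromosome 11 (82035577 to 82179812) parted in a similar way. Ccl2, or MCP-1, the main ligand of Ccr2, stood at 7249, 8705 and 8755 normalized counts in anti-CD73 libraries, against 19918, 8651 and 8252 in con libraries. The 5 libraries other than con replicate 1 all lay between 7249 and 8755, and the log2 fold change of -0.45 (SE 0.33) came to -0.042 without con replicate 1. Ccl7, or MCP-3, stood at 507, 554 and 435 in anti-CD73 libraries, against 731, 359 and 266 in con libraries, with 0.27 (SE 0.34) over all libraries and 0.68 without con replicate 1. Ccl12, the mouse MCP-5, stood at 114, 125 and 82.3 in anti-CD73 libraries, against 84.3, 51.9 and 28.4 in con libraries. Its groups overlapped by a single pair of libraries, anti-CD73 replicate 3 and con replicate 1, and the log2 fold change was 1.06 (SE 0.39, limma adjusted p = 0.268, or 1.43 without con replicate 1). Ccl8, which in the mouse acts on Ccr8, had a log2 fold change of -0.24 (SE 0.32, or 0.026 without con replicate 1) with groups that overlapped. Ccr2, the receptor that brings monocytes from the marrow, stood at 468, 667 and 361 in anti-CD73 libraries, against 567, 188 and 84.6 in con libraries. Con replicate 1 lay among the anti-CD73 libraries and the other con libraries below them all (1.21, SE 0.62, or 1.93 without con replicate 1).

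Further CC ligands of myeloid cells and lymphocytes lie in a second stretch of chromosome 11 (83525778 to 83664683). Ccl3, or MIP-1 alpha, stood at 688, 712 and 473 normalized counts in anti-CD73 libraries, against 1304, 155 and 117 in con libraries. Ccl4, or MIP-1 beta, stood at 719, 637 and 373 in anti-CD73 libraries, against 726, 172 and 128 in con libraries. Both were highest in con replicate 1 and lowest in the other con libraries, with log2 fold changes of 1.09 (SE 0.82) and 1.13 (SE 0.62), or 2.18 and 1.90 without con replicate 1. For Ccl3 edgeR and DESeq2 gave 0.28 and 0.25 on the recovered reads, and the value was 0.45 without con replicate 3. The gene models of Ccl3 and Ccl4 share 755 bases, so their counts are uncertain. Ccl6, a rodent ligand of Ccr1 made by myeloid cells, stood at 1787, 2042 and 969 in anti-CD73 libraries, against 1128, 698 and 606 in con libraries. Only anti-CD73 replicate 3 and con replicate 1 overlapped (0.96, SE 0.33, limma adjusted p = 0.236, or 1.23 without con replicate 1). Ccl9, its neighbour and also a ligand of Ccr1, stood at 1422, 1682 and 1079.7 in anti-CD73 libraries, against 1072, 755 and 524 in con libraries. Its groups did not overlap, by the narrow gap between 1079.7 and 1072 (0.87, SE 0.28, limma adjusted p = 0.216, or 1.12 without con replicate 1). Ccl5, or RANTES, which T cells and natural killer cells make, ran the other way, at 397, 401 and 428 in anti-CD73 libraries, against 407, 674 and 683 in con libraries. Con replicate 1 lay among the anti-CD73 libraries and the other con libraries above them (-0.49, SE 0.21), and without it Ccl5 fell, with -0.73.

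Ccr1, the receptor of Ccl3, Ccl6 and Ccl9, lies on chromosome 9 near Ccr2 and Ccr3. It stood at 1899.6, 2092 and 1278 normalized counts in anti-CD73 libraries, against 2229, 799 and 480.5 in con libraries (0.86, SE 0.51, or 1.47 without con replicate 1). Con replicates 2 and 3 lay below every anti-CD73 library, while con replicate 1 lay above all of them. The macrophage and monocyte markers lay higher alongside these genes: 15 of 15 had a log2 fold change above 0, with a median of 0.79, and they summed to between 19865 and 32387 normalized counts in anti-CD73 libraries and to between 11389.6 and 21639 in con libraries, with none without reads in all libraries. Ccr1 minus the mean of these markers on the log2 scale was 0.45, 0.33 and 0.37 in anti-CD73 libraries and 0.99, 0.14 and -0.30 in con libraries, which overlap. The same measure for Ccr2 was -1.57, -1.31 and -1.45 in anti-CD73 libraries and -0.99, -1.94 and -2.79 in con libraries, with con replicate 1 again above every anti-CD73 library. Ccl9 minus these markers was 0.033, 0.020 and 0.13 in anti-CD73 libraries and -0.068, 0.059 and -0.17 in con libraries. The part of these markers in the receptor differences was not tested.

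The chemokines that stay on the cell surface until they are cut lay higher in anti-CD73 libraries than in con replicates 2 and 3. Cx3cl1, or fractalkine, stood at 158, 166 and 153 normalized counts in anti-CD73 libraries, against 162, 50.7 and 98.0 in con libraries. Con replicate 1 matched the anti-CD73 libraries, and the log2 fold change was 0.76 (SE 0.38, or 1.16 without con replicate 1). Its receptor gene Cx3cr1, of monocytes and microglia, was below the mean for testing, at 10.2, 8.47 and 6.17 in anti-CD73 libraries, against 12.2, 1.27 and 0.748 in con libraries. Cxcl16, a ligand that also takes up oxidized lipoprotein, stood at 334, 356 and 284 in anti-CD73 libraries, against 378, 175 and 120.5 in con libraries (0.69, SE 0.38, or 1.15 without con replicate 1). Its receptor gene Cxcr6, of tissue T cells, stood at 65.1, 47.6 and 16.5 in anti-CD73 libraries, against 115, 2.53 and 7.48 in con libraries. Con replicate 1 exceeded the mean of the other con libraries by 4.40 on the log2 scale, the largest such gap of the 35 genes. Its log2 fold change was 1.34 (SE 1.22), or 2.81 without con replicate 1 and 0.29 without con replicate 2, and edgeR and DESeq2 gave 0.087 and 0.056 on the recovered reads.

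Homing genes of lymphoid organs were represented by receptors, with few or no reads counted for their ligands. Ccr7, which brings dendritic cells and naive T cells to lymph nodes, stood at 285, 182 and 133 normalized counts in anti-CD73 libraries, against 281, 60.8 and 57.6 in con libraries (0.93, SE 0.61, or 1.67 without con replicate 1), while its ligands Ccl19, Ccl21a and Ccl21c had no read. The Ccl21c entries share a single RefSeq position, and how reads were counted is not known. Reads of such close relatives may have been lost, so the lack of Ccl21a and Ccl21c reads is uncertain. The dendritic cell markers lay higher too, with 7 of 7 tested log2 fold changes above 0, a median of 0.58, and sums between 2164 and 4915 in anti-CD73 libraries and between 793 and 3879 in con libraries; none was without reads in all libraries, and their part in the Ccr7 values was not tested. Cxcr5, a receptor of B cells and follicular T cells, stood at 21.4, 20.1 and 29.8 in anti-CD73 libraries, against 14.2, 13.9 and 13.5 in con libraries. Its groups did not overlap (0.72, SE 0.30, limma adjusted p = 0.315, or 0.73 without con replicate 1). Cxcr5 had 23, 19 and 29 reads in anti-CD73 libraries and 14, 11 and 18 in con libraries. Poisson intervals overlapped, at 11.4 to 29.7 reads in anti-CD73 replicate 2 and 10.7 to 28.4 in con replicate 3. Of 2 tested B cell markers, 1 log2 fold change lay above 0 and 1 below, without overlap (median -0.19). The 7 measured summed to between 911 and 928 in anti-CD73 libraries and between 593 and 1029 in con libraries. Their part in the Cxcr5 values was not tested. Its ligand Cxcl13 had 3 reads, all in anti-CD73 replicate 3, and the Cxcr5 gene model shares 120 bases with Bcl9l. Cxcr4, a receptor of most leukocytes, stood at 548, 554 and 412 in anti-CD73 libraries, against 633, 338 and 235 in con libraries (0.44, SE 0.34, or 0.82 without con replicate 1). Its ligand Cxcl12, a product of stromal cells, was low at 8.37, 4.24 and 17.5 in anti-CD73 libraries, against 13.2, 11.4 and 5.99 in con libraries, with groups that overlapped (-0.15, SE 0.56, or 0.056 without con replicate 1).

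Ackr3 lay lower in every anti-CD73 library. This atypical receptor (ENSMUSG00000044337; GRCm38.p6, chromosome 1, 90203980 to 90215724) removes Cxcl12 from the surroundings of the cell. It stood at 1246, 1233 and 1151 normalized counts in anti-CD73 libraries, against 1911, 1722 and 1944 in con libraries, so that the highest anti-CD73 value was well under the lowest con value. The means were 1210.0 ± 51.8 in anti-CD73 libraries and 1859 ± 119.7 in con libraries (SD, n = 3 each), a fold of 0.652, with a log2 fold change of -0.62 (SE 0.11, limma adjusted p = 0.141). Without con replicate 1 the log2 fold change was -0.60, and DESeq2 called the gene lower with all libraries. Con replicate 1 lay between the other con libraries for Ackr3, whereas it exceeded both for 33 of the 35 genes and lay below both for Ccl5. Tumour epithelium markers, of which 3 could be tested, had 2 log2 fold changes under 0 and a median of -0.29, with sums between 2127 and 2705 in anti-CD73 libraries and between 1961 and 4667 in con libraries; none was without reads in all libraries, and their part in the Ackr3 difference was not tested. Ccrl2, a relative that binds the attractant chemerin and presents it to other cells, stood at 1587, 1406 and 1059 in anti-CD73 libraries, against 1525, 678 and 503 in con libraries. Con replicate 1 reached the anti-CD73 range (0.73, SE 0.39, or 1.19 without con replicate 1). The other atypical receptor genes, Ackr1, Ackr2 and Ackr4, had 15, 16 and 3 reads over all libraries.

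Remaining pairs were low or level. Ccl25, the thymus and gut chemokine, stood at 156, 151 and 159 normalized counts in anti-CD73 libraries, against 173, 153 and 157 in con libraries. That was the smallest log2 fold change of the 35 in size, at -0.047 (SE 0.15, or 0.0038 without con replicate 1), and its receptor Ccr9 had 0.15 (SE 0.53, or 0.67 without con replicate 1) with groups that overlapped. Ccl22, which dendritic cells make to attract regulatory T cells, stood at 12.1, 19.1 and 9.25 in anti-CD73 libraries, against 18.3, 8.87 and 5.24 in con libraries (0.39, SE 0.52, or 0.83 without con replicate 1), and its receptor Ccr4 had 11 reads in all. Ccr3, the eosinophil receptor, stood at 22.3, 11.6 and 8.23 in anti-CD73 libraries, against 23.4, 1.27 and 2.99 in con libraries. Its log2 fold change was 1.21 (SE 0.88, or 2.21 without con replicate 1). Con replicates 2 and 3 held 1 and 4 reads of it, and its call without con replicate 1 rests on these. Its ligands Ccl11, Ccl24 and Ccl26 had 41, 9 and 0 reads. Xcr1, a marker of cross-presenting dendritic cells, stood at 8.37, 8.47 and 10.3 in anti-CD73 libraries, against 11.2, 3.80 and 1.50 in con libraries, and its ligand Xcl1 had 17 reads. Ccr8, found on regulatory T cells in tumours, stood at 9.30, 8.47 and 5.14 in anti-CD73 libraries, against 3.05, 1.27 and 0 in con libraries, values of at most 10 reads per library that were not tested. Of its ligands, Ccl1 had 3 reads, whereas Ccl8, described above, had 1280 over all libraries. The 20 genes that had reads but a mean under 10 had between 1 and 55 reads over the 6 libraries.

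**Figure D3:**
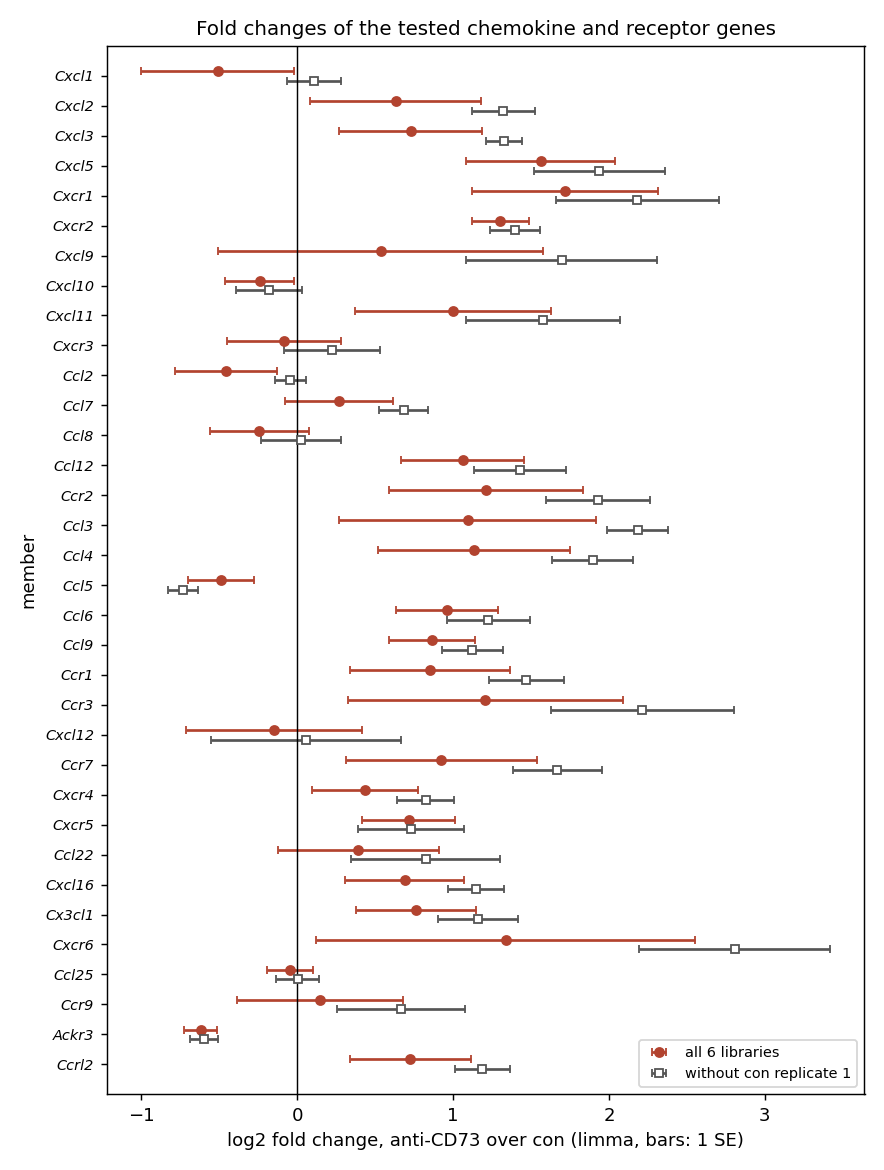
Log2 fold change of 34 of the 35 tested genes, anti-CD73 over con by limma, with bars of 1 SE; filled circles use all 6 libraries and open squares leave out con replicate 1. Most squares lie right of their circles, the square and circle of Cxcr2 and of Ackr3 nearly coincide, and Cxcl1 and Ccl2 come to lie near 0 without con replicate 1.

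Ratios of neighbouring genes within a library do not depend on the size factor, and several parted the groups where the single genes did not. The ratio of Cxcl2 to Cxcl1 counts was 0.572, 0.486 and 0.262 in anti-CD73 libraries, against 0.210, 0.199 and 0.163 in con libraries. That of Cxcl3 to Cxcl1 was 0.118, 0.108 and 0.0677 in anti-CD73 libraries, against 0.0394, 0.0391 and 0.0428 in con libraries. In both, every anti-CD73 library exceeded every con library, and con replicate 1 lay with the other con libraries although its Cxcl1 level was far above theirs. The ratio of Cxcl3 to Cxcl2 was 0.207, 0.223 and 0.258 in anti-CD73 libraries, against 0.188, 0.197 and 0.263 in con libraries, which overlap. On the log2 scale the difference of anti-CD73 minus con was 1.14 for Cxcl2 over Cxcl1, 1.24 for Cxcl3 over Cxcl1 and 0.097 for Cxcl3 over Cxcl2.

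The same held in the monocyte stretch. The ratio of Ccl7 to Ccl2 was 0.0699, 0.0636 and 0.0497 in anti-CD73 libraries, against 0.0367, 0.0414 and 0.0322 in con libraries. That of Ccl12 to Ccl2 was 0.0158, 0.0144 and 0.00940 in anti-CD73 libraries, against 0.00423, 0.00600 and 0.00345 in con libraries. Neither overlapped between groups. Among the receptors, the ratio of Ccr2 to Ccr1 was 0.246, 0.319 and 0.282 in anti-CD73 libraries, against 0.254, 0.235 and 0.176 in con libraries, which overlap. These pairs were picked after their values had been seen, from 42 pairs of tested members within 400 kb of each other, of which 13 had groups that did not overlap (31.0%), against 23.3% of the 61315 such pairs among all tested genes. An exact permutation test of one such ratio, two-sided, cannot give a p below 0.1 with 3 libraries against 3. Reads shared between such close relatives may have been split or lost in counting, which makes the ratios uncertain.

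**Figure D4:**
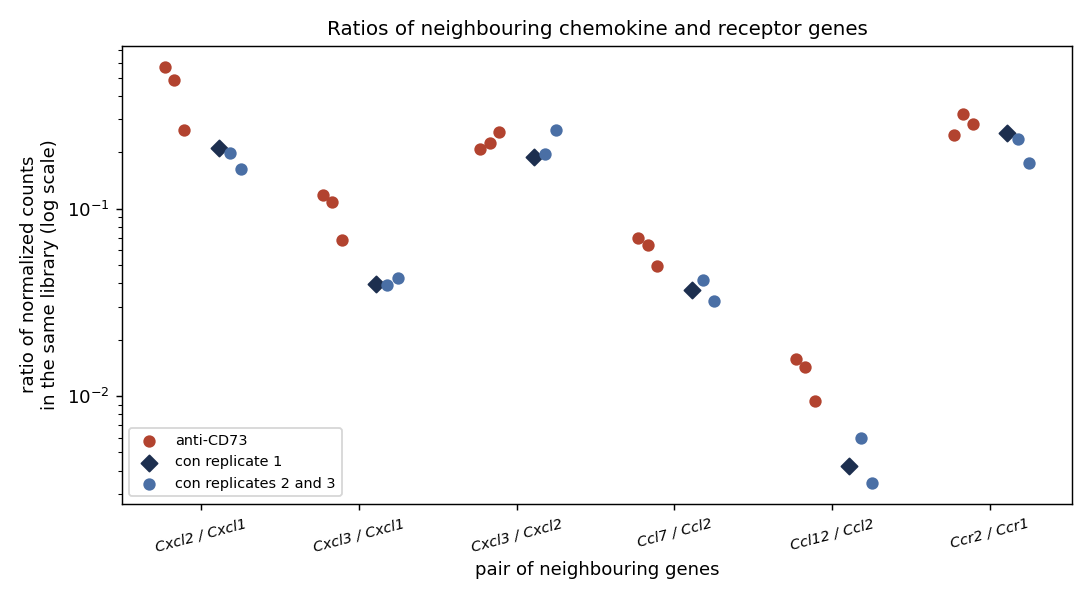
Ratio of the normalized counts of 2 neighbouring genes in the same library, on a log axis, for 6 pairs, with anti-CD73 libraries (red) left of con libraries (blue; diamonds are con replicate 1). The groups part for Cxcl2 and Cxcl3 over Cxcl1 and for Ccl7 and Ccl12 over Ccl2, and overlap for Cxcl3 over Cxcl2 and Ccr2 over Ccr1.

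As a share of all recovered reads, the ligands took 0.321, 0.321 and 0.330% of anti-CD73 libraries and 0.707, 0.265 and 0.224% of con libraries. The receptors took 0.0738, 0.0759 and 0.0526% of anti-CD73 libraries and 0.0737, 0.0380 and 0.0312% of con libraries. Con replicate 1 thus held the highest ligand share of the 6 libraries, while its receptor share lay within the anti-CD73 range. Most of its 90587 ligand reads came from a few genes: Cxcl1 had 48608, Ccl2 19616 and Cxcl2 10187.

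Genes that act with the chemokines were read from 5 lists, and limma called 0 genes of any of them with 6 libraries. Of the genes for signalling below chemokine receptors, 13 of 22 tested had a log2 fold change above 0 (median 0.30), and 8 lay higher and 0 lower at an unadjusted p under 0.05, against 8.69% and 6.82% of all genes. Those with the smallest p were Vav1, which activates Rac (log2 fold change 0.51, SE 0.11), Pik3r5, an adaptor of PI3 kinase gamma (1.15, SE 0.27) and Was, which drives actin branching (1.04, SE 0.26). Vav1 stood at 1215, 1215 and 1212 normalized counts in anti-CD73 libraries, against 925, 792 and 852 in con libraries, without overlap. Of the kinases, arrestins and RGS proteins that switch receptors off, 10 of 14 lay above 0 (median 0.32), with 5 higher and 1 lower at that p. They were led by the arrestin gene Arrb2 (0.69, SE 0.15), Rgs19 (0.42, SE 0.12) and Arrb1 (0.38, SE 0.11). Arrb2 stood at 1288, 1375 and 1226 in anti-CD73 libraries, against 657, 854 and 929 in con libraries, without overlap and with con replicate 1 the lowest.

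Of the proteases known to cut chemokines, 10 of 14 lay above 0 (median 0.20), with 1 higher and 0 lower at an unadjusted p under 0.05, close to the shares of all genes. The median was 0.34 without con replicate 1, 0.072 without con replicate 2 and 0.063 without con replicate 3. Mmp9, the gelatinase of neutrophils, stood at 554, 815 and 389.7 normalized counts in anti-CD73 libraries, against 257, 351 and 242 in con libraries (1.00, SE 0.28), and was followed by Ctss, a lysosomal cysteine protease (0.76, SE 0.39), and Mmp8 (0.61, SE 0.33). Of the cytokines and factors that switch on chemokine genes, 14 of 22 lay above 0 (median 0.28, or 0.17 without con replicate 3), with 3 higher and 0 lower. These 3 were Irf7 (0.89, SE 0.19), Irf8 (0.79, SE 0.19) and the NF-kappaB subunit gene Relb (0.43, SE 0.11). Relb stood at 1694, 1744 and 1725 in anti-CD73 libraries, against 1206, 1218 and 1425 in con libraries, without overlap. Of the receptors for other attractants, all 12 tested lay above 0 (median 0.83), with 5 higher and 0 lower. The smallest p fell to Gpr35 (1.06, SE 0.26), the leukotriene B4 receptor gene Ltb4r1 (1.10, SE 0.28) and the chemerin receptor gene Cmklr1 (0.78, SE 0.30). Gpr35 stood at 999.6, 994 and 730.1 in anti-CD73 libraries, against 636, 384 and 327 in con libraries, without overlap. The macrophage and neutrophil markers given above lay higher alongside these lists as well, and their part was not tested. Mmp8, Mmp9 and Elane stand in both the protease list and the neutrophil markers, so these 2 sets are not separate. Without con replicate 1, limma called 11.9% of all genes higher and 10.3% lower. It then called 10 of the 22 signalling genes higher and 2 lower, 5 of the 14 desensitisation genes higher and 3 lower, 5 of the 14 proteases higher and 1 lower, 8 of the 22 inducers higher and 1 lower, and 9 of the 12 other attractant receptors higher and 0 lower. The lower calls among the signalling genes, proteases and inducers are near or below the share of all genes.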

How the data were processed

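Bulk RNA sequencing of 3 anti-CD73 and 3 con libraries was used. Per the labels' protocols, a Direct-zol kit purified the RNA from Trizol, and an NEBNext Ultra II kit was used for the libraries. Per the labels, the deposited signal values are gene counts after DESeq scaling, with 1 size factor for each library. The submitters' processing notes list Bowtie 0.12.7 and mm10 and give neither a role. The sources used here do not give the counter, the annotation or the use of strand, so counts of close relatives and overlapping genes are uncertain. Columns were matched to samples by description, whose numbers differ from those in the titles; groups and replicate numbers came from the titles.

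Within a library all deposited values were multiples of a single step, the worth of 1 read, and dividing by it recovered whole reads (100% of values within 0.01). Between 15695 and 16596 genes had a read per library. The test was limma-trend (limma 3.58.1, R 4.3.3) on log2(normalized count + 1) for the 12262 genes with a mean of at least 10, with no block, at a Benjamini-Hochberg adjusted p of 0.05. Alternatives were edgeR 4.0.16 (quasi-likelihood) and DESeq2 1.42.0 on recovered reads, TMM or quantile scaling, pseudocounts of 0.5 and 8, a filter at a mean of 50 or none, erythroid markers left out, replicate blocks, and each library left out. DESeq2 gave no adjusted p for Ccr3, Ccl3, Ccl22 and Cxcl12. Poisson intervals are exact, at 95%.

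Every tested member but 1, which is not reported here, was named, with its value in every library for the 14 smallest p and for a fixed panel of ligands and receptors. Of each pathway list, the 3 smallest p were named. The members, lists, panel and tests were chosen with earlier results of these data known. Members were placed with RefSeq on GRCm38.p6, the assembly of mm10, by Entrez identifier (62 of 62 matched, all with the same symbol). For gene pairs and overlapping models, genes were placed by symbol. The scripts were tested on simulated data. Figures were drawn with matplotlib 3.10.9.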

Additional observations from a re-analysis of the deposited data

How the results depend on the processing

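TMM scaling, pseudocounts of 0.5 and 8, a filter at a mean of 50 or none, and the block by title number kept the direction of every tested member they could be fitted to, and called 0. With each library left out in turn, limma called between 0 and 21 members higher and between 0 and 2 lower, with all calls made without con replicate 1, and the median ranged from 0.39 to 1.19 for the members, from 0.21 to 0.41 for the receptor desensitisation list, from 0.063 to 0.34 for the proteases and from 0.17 to 0.36 for the inducers. On recovered reads DESeq2 called 1 higher and 1 lower. Without con replicate 1, edgeR called 21 higher and 2 lower, and DESeq2 22 and 2. Whether the title numbers pair the libraries could not be settled with 3 libraries a group. Deviations of same-numbered libraries correlated at 0.19, -0.096 and 0.26, and those of differently numbered ones between -0.27 and 0.19. The replicate block by title number called 0 members. The replicate block by description number, where only 2 numbers are shared, called 20 higher and 3 lower, against 8.94% and 5.58% of all genes, and put the median of the receptor signalling list at 0.14. That fit gives con replicate 1 and anti-CD73 replicate 2 a level of their own, so they carry no weight in it.

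Directions turned for 8 members, whose log2 fold changes with all libraries and limma lay within 0.54 of 0. Ccr9 came to -0.10 with quantile normalization and -0.013 with DESeq2, and Ccl25 to 0.021 with erythroid markers left out and libraries rescaled. The block by description number gave 0.23 for Cxcl1, 0.024 for Ccl25, 0.50 for Cxcl12 and 0.23 for Cxcr3. Cxcl9 came to -0.46 with edgeR and -0.48 with DESeq2, and Cxcl12 to 0.028 with edgeR. With each library left out in turn, Cxcl1 ranged from -0.90 to 0.11, Cxcl9 from -0.69 to 1.70, Cxcl12 from -0.61 to 0.30, Cxcr3 from -0.36 to 0.22, Ccl7 from -0.046 to 0.68, Ccl8 from -0.49 to 0.026, Ccl25 from -0.081 to 0.0038 and Ccr9 from -0.33 to 0.67. Without con replicate 1, edgeR and DESeq2 both gave 0.14 for Cxcl1, and they gave 0.053 and 0.063 for Ccl8, 0.016 and 0.017 for Ccl25, 0.30 and 0.25 for Cxcl12 and 0.25 and 0.26 for Cxcr3. The cause was not tested. EdgeR and DESeq2 also moved the value by over 1.5 times for Cxcl2 (0.31 and 0.29), Ccl3 (0.28 and 0.25), Cxcr6 (0.087 and 0.056), Ccr3 (0.65 and 0.62), Ccr7 (0.62 and 0.59) and Ccl7 (0.17 and 0.15), as did DESeq2 for Cxcl3 (0.47) and Cxcl1 (-0.77). Small shifts could not be resolved with 3 libraries a group, and members under a mean of 10 rest on few reads.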
